A study of Mus musculus with 12 samples.

Results

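The loci described here were the annotated long intergenic noncoding RNA (lincRNA) genes of the mouse hippocampus. They comprised every locus to which the deposited tables gave the gene type lincRNA, apart from 3 on chromosome X, which were left out. This gave 238 loci of the 22306 in the tables, beside 12218 protein-coding loci and 3012 loci of the separate class novel_lincRNA. The choice used only gene type and position, not the measured levels. RNA came from the hippocampus of C57BL/6 mice given 10 µg of a small interfering RNA (siRNA) intranasally and killed 3 days later. The 12 poly-A selected, strand-specific libraries formed 3 groups of 4. The group labelled siScramble received a scrambled sequence, siHdac4 an siRNA against histone deacetylase 4, and siBdnf one against brain-derived neurotrophic factor. All mice therefore received some siRNA by the nasal route, and age and sex were not given in the labels used here. Whether every library stands for a separate mouse is not stated in the labels. P-values thus reflect variation among these libraries, which may be technical in part.

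LincRNAs are transcribed by RNA polymerase II from their own promoters, spliced and usually polyadenylated, and do not encode a conserved long protein. Some act in the nucleus as scaffolds of nuclear bodies or regulators of neighbouring genes, some bind microRNAs (miRNAs) or proteins, and some matter mainly because their introns or exons give rise to small nucleolar RNAs (snoRNAs) or miRNAs. In brain they are known for low levels and for strong differences between cell types. Histone deacetylase 4 is known to bind transcription factors of the MEF2 family, and Bdnf is a known target of the factor CREB.

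Several of the more abundant loci contain miRNA genes. Their mature sequences, from the RefSeq table for GRCm38.p6, are printed because the levels below are those of their host transcripts, while the mature miRNAs were not measured. Each is written 5′ to 3′, with the seed (bases 2 to 8) in capitals.
miR-9-5p, in Gm3764 (Mir9-1, chr3:88215613-88215635, plus strand) and in C130071C03Rik (Mir9-2, chr13:83738821-83738843, plus strand): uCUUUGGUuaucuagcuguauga
miR-29b-3p, in A330023F24Rik (Mir29b-2, chr1:195037091-195037113, plus strand): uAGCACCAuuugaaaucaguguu
miR-29c-3p, in A330023F24Rik (Mir29c, chr1:195037600-195037621, plus strand): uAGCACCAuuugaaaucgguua
miR-101a-3p, in E130102H24Rik (Mir101a, chr4:101346957-101346977, minus strand): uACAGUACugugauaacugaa
miR-770-5p, in Meg3 (Mir770, chr12:109563710-109563731, plus strand): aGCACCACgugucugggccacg
The miRNAs 29b-3p and 29c-3p share the seed AGCACCA and lie in the same host, and the 2 copies of miR-9 lie in hosts on different chromosomes. The seeds of miR-9-5p, miR-101a-3p and miR-770-5p each differ from that seed.

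A window of 300 bases, most of it upstream of the start site, was found in the RefSeq table for 144 of the lincRNA loci. These windows were searched for TGACGTCA, the palindromic CREB element, and for a MEF2-like pattern, CTA and TAG with any 4 bases between them. Both motifs read the same on both strands, so a match counts once, and no lincRNA window held both. TGACGTCA was found in 7 of 144 lincRNA promoters (4.86%) and in 507 of 27025 promoters of all genes in the table (1.88%). The MEF2-like pattern was found in 7 of 144 (4.86%) and in 999 of 27025 (3.70%). Meg3 and Gm3764 are shown because each holds the first motif, and Snhg1 because it holds the second, with the match in capitals. They are credited to RefSeq, GRCm38.p6.
Meg3 promoter, chr12:109540746-109541045, plus strand: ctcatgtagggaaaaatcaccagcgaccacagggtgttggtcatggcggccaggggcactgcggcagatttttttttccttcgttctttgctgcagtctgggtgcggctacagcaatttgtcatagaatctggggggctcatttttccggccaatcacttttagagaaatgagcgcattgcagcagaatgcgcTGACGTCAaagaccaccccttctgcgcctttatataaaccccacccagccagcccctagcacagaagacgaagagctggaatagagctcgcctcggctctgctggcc
Gm3764 promoter, chr3:88214232-88214531, plus strand: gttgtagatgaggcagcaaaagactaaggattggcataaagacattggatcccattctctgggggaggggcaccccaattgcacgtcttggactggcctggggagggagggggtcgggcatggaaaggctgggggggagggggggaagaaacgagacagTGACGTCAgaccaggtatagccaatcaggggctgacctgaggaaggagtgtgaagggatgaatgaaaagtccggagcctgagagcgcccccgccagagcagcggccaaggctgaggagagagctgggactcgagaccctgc
Snhg1 promoter, chr19:8723237-8723536, plus strand: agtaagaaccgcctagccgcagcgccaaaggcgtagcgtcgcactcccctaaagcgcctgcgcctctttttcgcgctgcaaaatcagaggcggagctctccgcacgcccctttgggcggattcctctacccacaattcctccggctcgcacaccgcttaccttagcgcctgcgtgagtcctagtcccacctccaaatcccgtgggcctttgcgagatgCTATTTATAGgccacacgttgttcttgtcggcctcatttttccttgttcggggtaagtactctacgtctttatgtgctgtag
The match begins 57 bases before the start site in Meg3, 91 bases before it in Gm3764 and 32 bases before it in Snhg1. The RefSeq start of Gm3764 lies inside the span that GENCODE M21 gives the gene, printed further on. The matches describe letters in these windows, and binding of a factor was not measured. The other promoters with TGACGTCA were those of 1500026H17Rik, 4930447M23Rik, 6030443J06Rik, B230354K17Rik and C030037D09Rik. In GENCODE M21 a coding gene starts on the opposite strand 86 bases from 1500026H17Rik, 3 from 6030443J06Rik, 139 from B230354K17Rik and 132 from C030037D09Rik. Snhg1 lies 106 bases from such a start. For Meg3, Gm3764 and 4930447M23Rik the nearest coding start is at least 27123 bases away. A window near a coding start may also belong to that gene, and its part in the shares was not tested.

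Levels were given as FPKM, a measure of fragments scaled by transcript length and by library, so that loci can be compared per length. The tables hold no read totals, so the depth behind a value is unknown. The transcripts that the siRNAs target did not separate the groups. Hdac4 had a mean of 39.1 ± 5.94 FPKM in siScramble (31.5 to 45.9) and 41.0 ± 5.93 FPKM in siHdac4 (34.0 to 48.2), and Bdnf 5.37 ± 0.174 FPKM in siScramble (5.14 to 5.51) and 5.19 ± 0.255 FPKM in siBdnf (4.84 to 5.43; SD, n = 4 each). The group names below are therefore the labels of the libraries, and each direction is that between the libraries so labelled. Replicates 1 and 3 of siScramble stood apart by their choroid plexus content. The summed level of 14 choroid plexus and ependyma markers, none of which was at 0 in every library, ran from 40.2 to 2175 FPKM in siScramble, from 28.5 to 85.3 FPKM in siHdac4 and from 36.0 to 109 FPKM in siBdnf. That of 10 markers of hippocampal granule and pyramidal neurons ran from 433 to 678 FPKM, 603 to 717 FPKM and 651 to 812 FPKM in the same order. Neurod6 was the largest part of this sum in every library. It ran from 249 to 457 FPKM, 391 to 499 FPKM and 438 to 594 FPKM in the same order. The part of neuronal content in the sum was not tested. In the choroid plexus and ependyma sum, Ttr was the largest part in siScramble replicates 1 and 3, at 809.7 and 1977 FPKM. Every marker was higher in both than in siScramble replicates 2 and 4, apart from Foxj1, Dynlrb2 and Ccdc153. Ccdc153 was at 7.76 and 6.75 FPKM in siScramble replicates 1 and 3, against 7.26 and 14.1 FPKM in replicates 2 and 4.

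LincRNA loci were low. The median of their mean FPKM over the 12 libraries was 1.503, with an interquartile range from 0.702 to 3.97, against a median of 9.58 for protein-coding loci and 1.14 for novel_lincRNA loci. A mean of at least 1 FPKM was reached by 147 of the 238 (61.8%), compared with 90.5% of protein-coding loci. At least 10 FPKM was reached by 27, and at least 100 FPKM by 1, Meg3. Another 91 loci were below 1 FPKM, of which 3 were listed at 0 in all 12 libraries. The summed level of the 238 loci ran from 1264 FPKM in siScramble replicate 2 to 1437 FPKM in siHdac4 replicate 2. The number listed above 0 ran from 224 to 232 per library, and the median level of the 238 from 1.38 to 1.64 FPKM. By the sum, the number and the median, no library stood apart in lincRNA content. The share of lincRNA loci in the FPKM summed over all loci was lowest in siScramble replicate 3, at 0.108%. It ran from 0.131% to 0.169% in the other libraries. The FPKM summed over all loci was highest in siScramble replicate 3, at 1.25e+06.

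**Figure D1:**
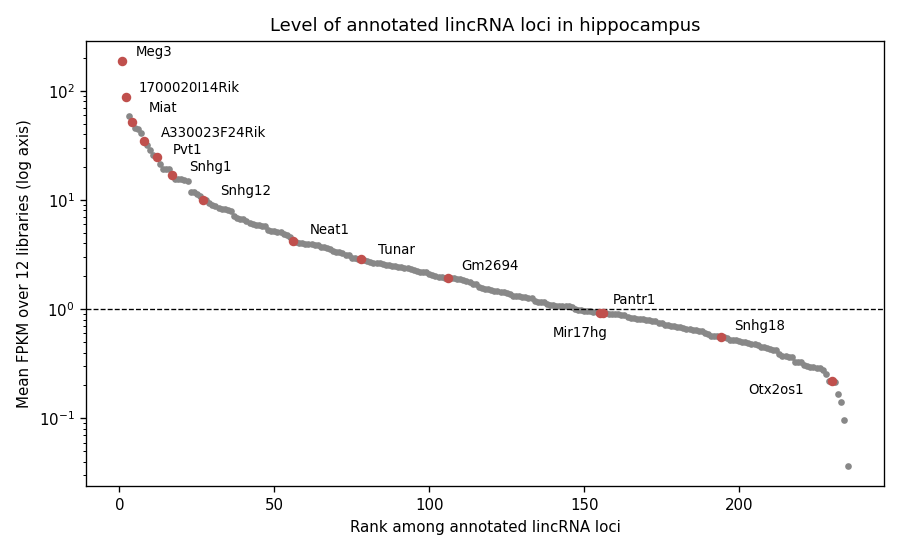
Mean FPKM over 12 libraries (log axis) of the annotated lincRNA loci outside chromosome X, ordered by rank, with 14 loci named in red and the dashed line at 1 FPKM. The 3 loci listed at 0 in every library are not drawn. Meg3 alone lies above 100 FPKM, and 147 loci lie at or above the dashed line.

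Meg3 alone held 14.1% of the summed lincRNA level, and the 10 highest loci together 45.8%. Meg3, the maternally expressed transcript of the imprinted Dlk1-Dio3 region, was first at 187 FPKM. 1700020I14Rik, which RefSeq lists as Oip5os1 or Cyrano and which is known in mouse to trigger the decay of miR-7, was second at 86.6 FPKM. They were followed by 6330403K07Rik at 58.9 FPKM, Miat at 52.1 FPKM, 1700029E06Rik at 45.5 FPKM and 6530403H02Rik at 44.7 FPKM. The joint locus of 2810049E08Rik and C130071C03Rik stood at 40.6 FPKM, A330023F24Rik at 34.9 FPKM, 2900052N01Rik at 31.6 FPKM and A930011O12Rik at 28.6 FPKM. Several of the best known noncoding RNAs of brain are not among the 238 because the tables class them otherwise. The joint locus that holds Rian and Mirg, downstream of Meg3, was classed as overlapping_loci and stood at 313 FPKM, and Snhg11, classed as protein-coding, stood at 389 FPKM. Malat1 shares a locus with Frmd8 that was listed at 0 in all 12 libraries, so its level was not analysed here.

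Names were compared with GENCODE M21 on GRCm38, because neither build nor annotation is stated for the tables in the labels or headers. Of the 238 loci, 224 matched a gene by symbol or synonym on the same chromosome, and 218 of those overlapped it. For 211 loci with a single name and a single overlapping gene, GENCODE M21 gave the biotype lincRNA to 144, antisense to 27, bidirectional promoter lncRNA to 18, processed transcript to 14 and protein-coding to 4. The 4 were 6330403K07Rik, Gm2115, Tunar and AI854703, so the third most abundant locus carries a coding annotation in that release. The longest transcript had a median of 3 exons and 1872 bases. For 72 loci a protein-coding gene started within 1000 bases on the opposite strand. Snhg1, for example, starts 106 bases from Slc3a2, a subunit of amino acid transporters, and 1500026H17Rik 86 bases from Scyl2. The libraries mark strand, but whether the authors used it in counting is not stated, so reads of a lincRNA and of a gene on its other strand may not be told apart. In all, 22 loci held at least 1 small RNA gene on their own strand. The deposited coordinates of 73 loci were shared with another locus, in 42 cases a protein-coding one, so the start and end of such a locus do not describe the lincRNA alone. Coordinates printed here are therefore those of GENCODE M21.

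The transcripts were taken first by their roles. Meg3 (chr12:109541001-109571726, plus strand, 5 exons in its longest transcript) was measured at 158, 188, 237 and 190.2 FPKM in siScramble, 173, 173, 173 and 179.6 FPKM in siHdac4, and 185, 197, 195 and 200.3 FPKM in siBdnf. The siScramble libraries spread on both sides of all others, and the 4 siHdac4 values lay below the 4 siBdnf values with no overlap. The mean was 193 ± 32.5 FPKM in siScramble, 174 ± 3.45 FPKM in siHdac4 and 194 ± 6.45 FPKM in siBdnf (SD, n = 4 each). The log2 fold change, on the log2(FPKM + 1) scale used throughout, was −0.13 for siHdac4 against siScramble (95% interval −0.35 to 0.08; limma adjusted p = 0.631). It was −0.15 for siHdac4 against siBdnf (95% interval −0.37 to 0.058; limma adjusted p = 0.448), so neither difference passed the test at 0.05.

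Hosts of miRNAs formed the next group. Of 17 symbols on a list of miRNA hosts, 5 were lincRNA loci by these tables, 6 stood under other types and 6 were not listed. A330023F24Rik (chr1:194976375-195037904, plus strand, 5 exons), the host of the miRNAs 29b-2 and 29c printed above, was measured at 32.6, 27.7, 36.2 and 33.5 FPKM in siScramble, 33.3, 31.4, 29.4 and 37.9 FPKM in siHdac4, and 38.2, 39.3, 37.0 and 41.7 FPKM in siBdnf. All 4 siBdnf values lay above the 4 siScramble values, although the lowest siBdnf value was within 1 FPKM of the highest siScramble value. Its mean was 32.5 ± 3.54 FPKM in siScramble and 39.1 ± 1.98 FPKM in siBdnf (SD, n = 4 each), a log2 fold change of 0.26 (95% interval 0.064 to 0.46; limma adjusted p = 0.502). For siHdac4 against siScramble the log2 fold change was 0.02 (95% interval −0.18 to 0.22), and its sign turned to −0.052 without siScramble replicate 2 and to −0.047 without siHdac4 replicate 4.

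A930011O12Rik (chr14:64587331-64593961, plus strand), which RefSeq names Mir124a-1hg and which contains the neuronal miRNA gene Mir124a-1, was measured at 28.0, 26.4, 31.3 and 27.7 FPKM in siScramble, 28.1, 28.3, 24.04 and 29.5 FPKM in siHdac4, and 27.5, 33.0, 25.1 and 34.5 FPKM in siBdnf. The 3 groups overlapped, and siBdnf had both the highest value and one of the lowest. The joint locus with C130071C03Rik, the host of the copy Mir9-2, was measured at 44.1, 40.0, 36.6 and 42.4 FPKM in siScramble, 40.7, 46.8, 42.0 and 38.1 FPKM in siHdac4, and 38.5, 38.3, 41.2 and 38.9 FPKM in siBdnf. Its groups overlapped as well, with log2 fold changes of 0.037 for siHdac4 and −0.052 for siBdnf against siScramble. Gm3764 (chr3:88206813-88229959, plus strand), the host of the copy Mir9-1, was measured at 16.6, 19.7, 26.1 and 25.6 FPKM in siScramble, 20.9, 17.3, 18.7 and 21.5 FPKM in siHdac4, and 20.3, 21.3, 21.4 and 24.1 FPKM in siBdnf. The lowest and the highest of its 12 values were both in siScramble.

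Pvt1 (chr15:62037986-62378096, plus strand, 10 exons), which neighbours Myc and is known in human as a host of miRNAs, was measured at 24.5, 19.2, 23.7 and 23.6 FPKM in siScramble, 25.4, 28.3, 24.997 and 24.9 FPKM in siHdac4, and 27.7, 22.1, 23.6 and 25.2 FPKM in siBdnf. The 4 siBdnf and 4 siScramble values overlapped, while the 4 siHdac4 values all lay above those of siScramble. Its log2 fold change for siHdac4 against siScramble was 0.18 (95% interval −0.0091 to 0.37; limma adjusted p = 0.508). E130102H24Rik, which contains Mir101a, had a mean of 8.83 FPKM, and its 4 siHdac4 values lay below the 4 siBdnf values (log2 fold change −0.18; limma adjusted p = 0.362). Mir17hg, whose 6 miRNA genes form the miR-17 to miR-92 cluster, stood at 0.918 FPKM, under the level tested.

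The list of snoRNA hosts, transcripts known for snoRNAs in their introns, held 22 symbols. Of these, 6 were lincRNA loci, and 4 of the 6 had a mean of at least 1 FPKM. The 6 included Mir17hg and 2810008D09Rik, for which GENCODE M21 lists small RNA genes of other kinds but no snoRNA gene. Snhg1 (chr19:8723475-8726443, plus strand), which contains 8 snoRNA genes, was measured at 13.2, 14.2, 16.8 and 20.01 FPKM in siScramble, 14.6, 15.6, 15.2 and 16.1 FPKM in siHdac4, and 18.1, 18.7, 20.7 and 20.5 FPKM in siBdnf. The siHdac4 values were all below the siBdnf values, and siScramble covered the range of both, apart from the highest siBdnf values. Its mean was 16.04 ± 3.05 FPKM in siScramble, 15.4 ± 0.630 FPKM in siHdac4 and 19.5 ± 1.30 FPKM in siBdnf (SD, n = 4 each). The log2 fold change was −0.32 for siHdac4 against siBdnf (95% interval −0.56 to −0.088; limma adjusted p = 0.232). For siBdnf against siScramble it was 0.28 (limma adjusted p = 0.524).

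Snhg12 (chr4:132308623-132311024, plus strand), with 4 snoRNA genes, was measured at 12.1, 10.4, 8.97 and 9.29 FPKM in siScramble, 11.9, 10.8, 8.53 and 7.68 FPKM in siHdac4, and 11.2, 8.90, 10.8 and 9.45 FPKM in siBdnf. Its groups overlapped throughout, and the log2 fold changes against siScramble were −0.072 for siHdac4 and −0.012 for siBdnf. 2410004N09Rik, which RefSeq names Epb41l4aos and which holds 1 snoRNA gene, was measured at 11.4, 7.52, 8.58 and 9.15 FPKM in siScramble, 11.03, 12.01, 9.06 and 11.2 FPKM in siHdac4, and 22.6, 11.6, 8.48 and 12.5 FPKM in siBdnf. Replicate 1 of siBdnf stood above every other library, and the log2 fold change of siBdnf against siScramble was 0.47 (95% interval −0.023 to 0.97; limma adjusted p = 0.592). In that library Tac2, which habenula neurons are known to express, was at 84.6 FPKM, against 0.668 to 1.92 FPKM in the other 3 siBdnf libraries. It carried the sum of the 6 thalamus and habenula markers there, 125 FPKM against 44.3 to 46.5 FPKM, since the other 5 markers summed to 40.3 FPKM in that library and to 43.3 to 44.5 FPKM in the other 3. The part of neighbouring tissue in the value was not tested. Snhg18, with 1 snoRNA gene, stood at 0.555 FPKM.

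Of nuclear-retained transcripts, Miat (chr5:112213228-112229395, minus strand, 7 exons), also known as Gomafu and kept in the nuclei of neurons, was measured at 51.0, 46.5, 53.3 and 53.0 FPKM in siScramble, 52.6, 53.4, 48.9 and 51.2 FPKM in siHdac4, and 52.5, 53.0, 53.6 and 55.6 FPKM in siBdnf. Only 3 of the 147 loci tested had a smaller SD over the 12 libraries, and its groups overlapped, with log2 fold changes of 0.017 (95% interval −0.10 to 0.13) for siHdac4 and 0.076 (95% interval −0.042 to 0.19) for siBdnf against siScramble. Neat1 (chr19:5824708-5845478, minus strand), the scaffold of paraspeckles, was measured at 3.68, 3.76, 6.28 and 4.56 FPKM in siScramble, 4.41, 3.37, 4.38 and 3.63 FPKM in siHdac4, and 4.04, 3.97, 4.70 and 4.04 FPKM in siBdnf. Replicate 3 of siScramble was the highest and the groups overlapped, with log2 fold changes of −0.15 for siHdac4 (95% interval −0.45 to 0.14) and −0.081 for siBdnf (95% interval −0.38 to 0.22).

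1700020I14Rik (chr2:119594297-119607502, plus strand) was measured at 87.0, 90.5, 85.01 and 83.8 FPKM in siScramble, 91.3, 94.7, 89.7 and 85.2 FPKM in siHdac4, and 83.9, 81.3, 84.8 and 82.0 FPKM in siBdnf. The 4 siHdac4 values lay above the 4 siBdnf values, and siScramble lay across both. The difference was small, a log2 fold change of 0.12 for siHdac4 against siBdnf (95% interval 0.013 to 0.22; limma adjusted p = 0.281).

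The neural development list held 14 symbols, of which 5 were lincRNA loci. Tunar (chr12:105333870-105383932, plus strand), a transcript known in mouse for its part in pluripotency and neural differentiation, was measured at 3.30, 3.06, 2.87 and 2.25 FPKM in siScramble, 2.54, 3.12, 2.98 and 3.19 FPKM in siHdac4, and 2.64, 3.04, 2.62 and 3.04 FPKM in siBdnf. Its groups overlapped, with log2 fold changes of 0.038 for siHdac4 and −0.0069 for siBdnf against siScramble. Gm2694, beside Cbln1, was measured at 1.80, 1.38, 2.57 and 2.18 FPKM in siScramble, 1.25, 3.02, 2.87 and 1.31 FPKM in siHdac4, and 1.64, 1.66, 1.80 and 1.72 FPKM in siBdnf, and replicates 2 and 3 of siHdac4 were the highest. Pantr1, which neighbours the cortical transcription factor gene Pou3f3, stood at 0.931 FPKM, and Otx2os1 at 0.2195 FPKM. The deposited locus of Pantr1 did not overlap the GENCODE M21 gene of that name, so its level may not be that of this gene.

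Otx2os1 lies opposite to Otx2, a homeobox gene active in choroid plexus, and is one of the lowest lincRNA loci. It was listed at 0.474, 0, 1.62 and 0.0586 FPKM in siScramble, 0.153, 0, 0.0800 and 0 FPKM in siHdac4, and 0.0856, 0.0782, 0.0850 and 0 FPKM in siBdnf. Replicates 1 and 3 of siScramble, the libraries rich in choroid markers, were the highest. They had the highest levels of Ttr, the transport protein made by choroid plexus, at 809.7 and 1977 FPKM, against 7.91 to 77.1 FPKM in the other 10. The part of choroid tissue in the lincRNA differences from siScramble was not tested. Without siScramble replicates 1 and 3, limma called 0 lincRNA loci in both comparisons with siScramble, with 15 (10.2%, beside 14.8% of all loci) at an unadjusted p below 0.05 for siHdac4 and 10 (6.80%, beside 8.71%) for siBdnf. In such bulk tissue, fewer cells of a type and less RNA per cell cannot be told apart.

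All 72 symbols of the 7 role lists together included 19 of the lincRNA loci, 14 of them at a mean of at least 1 FPKM, and 24 loci under other types. Of the 35 loci tested on these lists, limma called 0 at an adjusted p below 0.05 in any comparison. At an unadjusted p below 0.05 there were 4 of 35 for siHdac4 against siScramble (beside 9.95% of all loci tested). There were 5 of 35 for siBdnf against siScramble (beside 8.62%) and 7 of 35 for siHdac4 against siBdnf (beside 15.6%). The only lincRNA locus among the first was 2810008D09Rik, and those among the second were Snhg1 and A330023F24Rik. Among the third they were Snhg1, 2810008D09Rik, A330023F24Rik and 1700020I14Rik. The rest stood under other types.

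**Figure D2:**
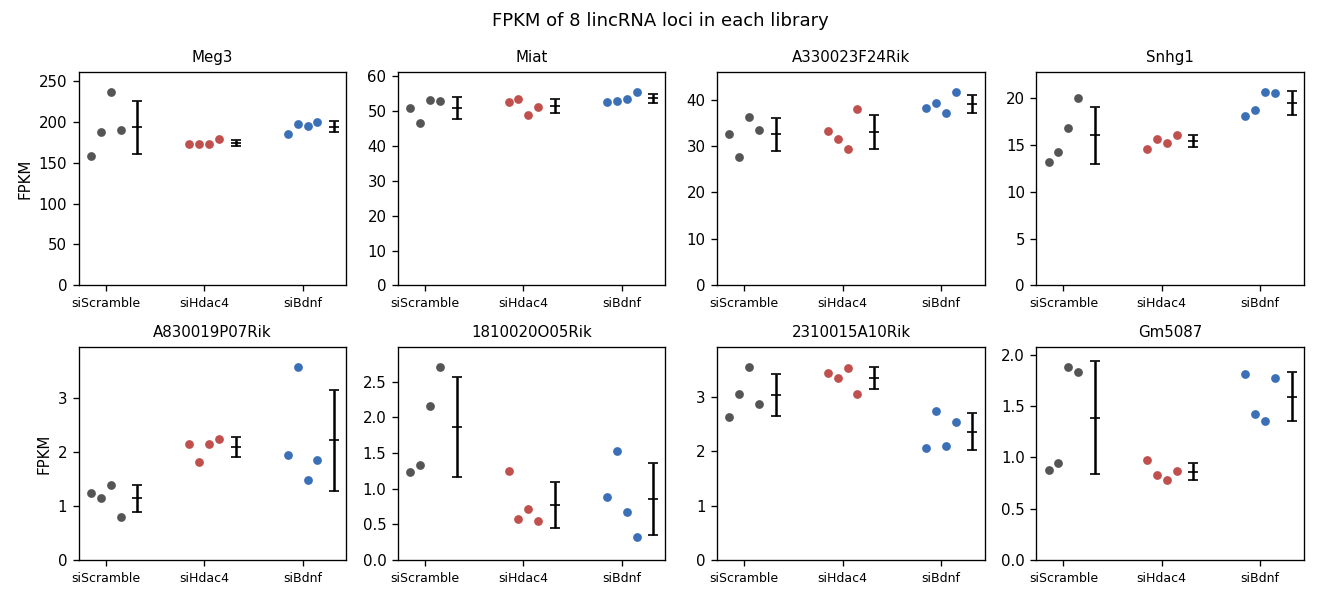
FPKM of 8 lincRNA loci in each library, 1 panel per locus with its own axis from 0, with points for the 4 libraries of a group and a bar for the mean ± SD. Miat lies between 46.5 and 55.6 FPKM in all 12 libraries, whereas the 4 siHdac4 values of Gm5087, from 0.776 to 0.978 FPKM, lie below its 4 siBdnf values, from 1.35 to 1.81 FPKM.

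The first comparison set siHdac4 against siScramble. LincRNA loci were tested together with all 18339 loci that passed a mean of 1 FPKM and were not listed at 0 through a whole group. Of the 147 lincRNA loci tested, limma called 0 at an adjusted p below 0.05, where it called 0.00545% of all loci tested, and the smallest adjusted p of a lincRNA was 0.476. At an unadjusted p below 0.05 there were 10 lincRNA loci (6.80%), beside 9.95% of all loci. Of these, 7 were higher (4.76%, beside 4.52% of all loci) and 3 lower (2.04%, beside 5.43%). In 4 of the 147 loci (2.72%) the groups did not overlap, beside 3.53% of all loci. These were Pvt1, 1810014B01Rik and A830019P07Rik, which were higher in siHdac4 (2.04%, beside 1.71% of all loci), and Gm26549, which was lower (0.68%, beside 1.82%). The median log2 fold change of the 147 was 0.029, with 87 above 0 (59.2%), whereas the median of all loci was −0.0089, with 47.6% above 0. After each library was scaled to the median of all loci, 97 lincRNA loci (66.0%) and 55.5% of all loci lay above 0. Under that scaling 11 lincRNA loci were higher at an unadjusted p below 0.05 (7.48%, beside 6.28% of all loci) and 3 lower (2.04%, beside 4.18%), so the excess of lower over higher values among all loci depended on the scaling.

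A830019P07Rik (chr19:35835217-35924578, minus strand, 6 exons) was measured at 1.25, 1.15, 1.40 and 0.809 FPKM in siScramble, 2.16, 1.83, 2.15 and 2.25 FPKM in siHdac4, and 1.95, 3.59, 1.49 and 1.85 FPKM in siBdnf. Every library of either siRNA group lay above the highest siScramble library. Its mean was 1.15 ± 0.250 FPKM in siScramble, 2.096 ± 0.185 FPKM in siHdac4 and 2.22 ± 0.934 FPKM in siBdnf (SD, n = 4 each). For siHdac4 the log2 fold change was 0.53 (95% interval 0.17 to 0.89; limma adjusted p = 0.476). With siBdnf the value was 0.55 (95% interval 0.19 to 0.91; limma adjusted p = 0.495). Both comparisons use the same 4 siScramble libraries, so they are not independent of each other.

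1810020O05Rik (chr6:87675593-87690847, minus strand) was measured at 1.24, 1.33, 2.16 and 2.71 FPKM in siScramble, 1.25, 0.569, 0.723 and 0.548 FPKM in siHdac4, and 0.880, 1.53, 0.679 and 0.327 FPKM in siBdnf. The 2 highest values were in siScramble, whose other 2 values overlapped with single libraries of siHdac4 and siBdnf. Its log2 fold change was −0.68 for siHdac4 (95% interval −1.15 to −0.21; limma adjusted p = 0.480) and −0.63 for siBdnf (95% interval −1.10 to −0.16; limma adjusted p = 0.502). The other loci with an unadjusted p below 0.05 and a lower level in siHdac4 were 6030443J06Rik (log2 fold change −0.34) and Gm5087 (−0.33). This locus of 6030443J06Rik had a mean of 2.29 FPKM. A separate joint locus of 6030443J06Rik and Gm6564 had a mean of 15.4 FPKM. The log2 fold change of the joint locus was 0.092 (95% interval −0.19 to 0.37).

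Gm12371 (chr4:36952966-36988032, plus strand), which starts 1219 bases from Lingo2 on the opposite strand, was measured at 2.16, 2.05, 1.68 and 1.93 FPKM in siScramble, 2.31, 4.35, 4.07 and 2.08 FPKM in siHdac4, and 3.03, 2.54, 1.96 and 2.04 FPKM in siBdnf. Replicates 2 and 3 of siHdac4 were higher than all other libraries, and the rest of the groups overlapped. Its log2 fold change for siHdac4 against siScramble was 0.47 (95% interval 0.077 to 0.86; limma adjusted p = 0.487). 4732491K20Rik, which starts 57 bases from the kinase gene Map3k4, had a log2 fold change of 0.32, and 2310010J17Rik, which starts 229 bases from the endocytosis gene Picalm, one of 0.19. Gm29277, the single lincRNA locus on chromosome Y, was measured at 5.2004, 20.8, 12.4 and 11.8 FPKM in siScramble, 15.4, 23.5, 20.1 and 18.2 FPKM in siHdac4, and 13.5, 10.8, 13.8 and 14.2 FPKM in siBdnf. It was lowest in siScramble replicate 1 and its siHdac4 and siScramble values overlapped (log2 fold change 0.70; limma adjusted p = 0.498). Among the loci of smallest p with lower values were also 9530026P05Rik, opposite to Adamts9, at −0.27, and Gm26644 at −0.31, both with an unadjusted p above 0.05.

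**Figure D3:**
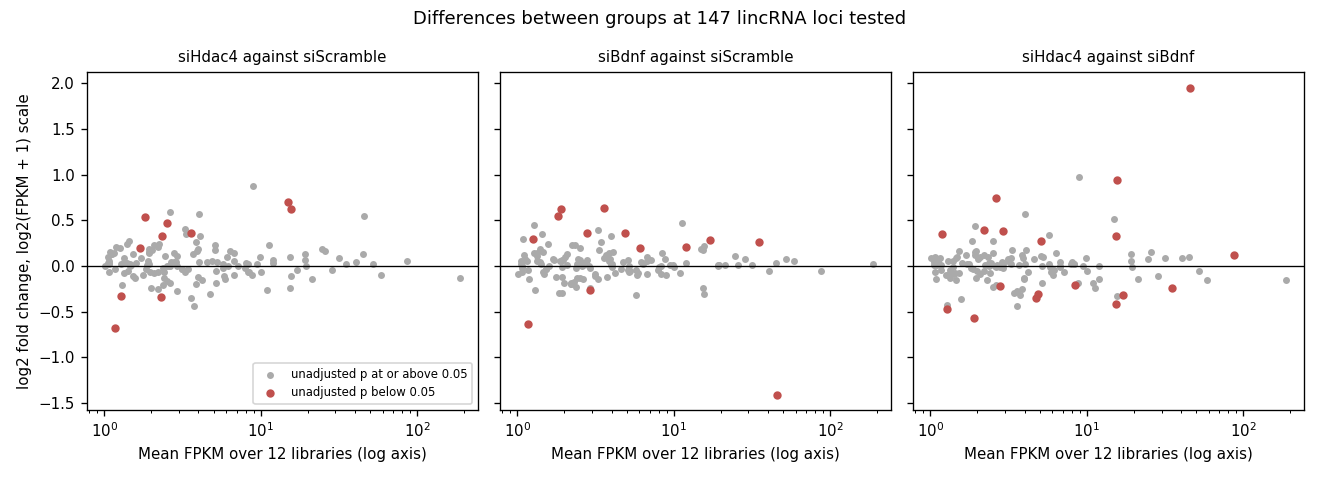
Log2 fold change on the log2(FPKM + 1) scale of the 147 lincRNA loci tested, against their mean FPKM over 12 libraries (log axis), for each of the 3 comparisons. Red points have an unadjusted limma p below 0.05, 10, 13 and 18 of the 147 from left to right, and none of the 147 passed at an adjusted p below 0.05.

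The second comparison set siBdnf against siScramble. Limma called 0 of the 147 lincRNA loci at an adjusted p below 0.05 and 0% of all 18339 loci, and the smallest adjusted p of a lincRNA was 0.495. At an unadjusted p below 0.05 there were 13 lincRNA loci (8.84%), beside 8.62% of all loci. Of these, 10 were higher (6.80%, beside 5.72% of all loci) and 3 lower (2.04%, beside 2.9%). The groups did not overlap in 6 lincRNA loci (4.08%), beside 4.87% of all loci. All 6 were higher in siBdnf, the direction of 3.29% of all loci, and 0 were lower, the direction of 1.58%. They were A330023F24Rik, A330102I10Rik, Gm28175, Gm28905, A830019P07Rik and Gm26588. The median log2 fold change of the 147 was 0.018, with 88 above 0 (59.9%), against 0.021 for all loci, with 56.5% above 0. After each library was scaled to the median of all loci, 74 of the 147 lay above 0 (50.3%) in place of 88, and so did 51.5% of all loci. Quantile normalization also left 74 above 0, beside 48.4% of all loci, and turned the split of all loci at an unadjusted p below 0.05 to 3.95% higher and 4.17% lower, with 9 lincRNA loci higher and 3 lower.

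RP24-539A2.1, a locus of chromosome 3 with no match in GENCODE M21 by name, had the smallest p in this comparison. It was measured at 2.40, 1.62, 3.76 and 2.73 FPKM in siScramble, 4.02, 3.32, 3.23 and 3.61 FPKM in siHdac4, and 3.64, 4.28, 5.13 and 5.07 FPKM in siBdnf. Replicates 1 and 2 of siScramble were the lowest, and replicate 3 of siScramble overlapped with siBdnf. Its mean was 2.63 ± 0.886 FPKM in siScramble and 4.53 ± 0.708 FPKM in siBdnf (SD, n = 4 each), a log2 fold change of 0.63 (95% interval 0.28 to 0.98; limma adjusted p = 0.495). In siHdac4 against the same siScramble libraries it was 0.35.

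Gm28905 (chr10:9976627-10207981, plus strand, 6 exons) was measured at 1.97, 2.67, 2.65 and 2.12 FPKM in siScramble, 2.83, 3.18, 2.35 and 2.39 FPKM in siHdac4, and 3.50, 2.98, 3.15 and 3.56 FPKM in siBdnf. All siBdnf values lay above all siScramble values, and siHdac4 lay between and across them. The log2 fold change for siBdnf against siScramble was 0.36 (95% interval 0.14 to 0.58; limma adjusted p = 0.495). Gm28175 (chr1:42261855-42304412, plus strand) lies on the same chromosome as Pantr1, and its nearest coding start, that of Pou3f3, is 433913 bases away. It was measured at 2.86, 4.71, 4.78 and 5.10 FPKM in siScramble, 4.85, 4.57, 3.83 and 4.71 FPKM in siHdac4, and 5.24, 5.78, 5.95 and 6.09 FPKM in siBdnf. Again siBdnf lay above siScramble with no overlap, and siScramble replicate 1 was the lowest library (log2 fold change 0.36; limma adjusted p = 0.523).

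On the lower side, the 3 loci with an unadjusted p below 0.05 were 1810020O05Rik, described above, 2310015A10Rik and 1700029E06Rik. 2310015A10Rik differed by −0.26 on the log2 scale (limma adjusted p = 0.515), and 1700029E06Rik by −1.41 with a wide interval (−2.69 to −0.13; limma adjusted p = 0.540). Next by p were 9330179D12Rik, opposite to the cyclin gene Ccnd2, at −0.30, and AI115009, opposite to the adenylate kinase gene Ak5, at −0.26, neither under an unadjusted p of 0.05.

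The third comparison set siHdac4 against siBdnf. It does not use the siScramble means, though the 3 groups shared the estimate of spread. Limma called 0 of the 147 lincRNA loci at an adjusted p below 0.05, where it called 0.00545% of all loci, and the smallest adjusted p of a lincRNA was 0.213. At an unadjusted p below 0.05 there were 18 lincRNA loci (12.2%), beside 15.6% of all loci. Of these, 9 were higher (6.12%, beside 5.15% of all loci) and 9 lower (6.12%, beside 10.5%). Median scaling turned that split to 11 higher (7.48%, beside 8.26% of all loci) and 6 lower (4.08%, beside 7.28%). The groups did not overlap in 17 lincRNA loci (11.6%), beside 13% of all loci. In siHdac4, 7 of them were higher (4.76%, beside 4.51% of all loci) and 10 lower (6.80%, beside 8.47%). The median log2 fold change of the 147 was 0.011, with 82 above 0 (55.8%), and that of all loci −0.028, with 43% above 0. Under median scaling 94 lincRNA loci (63.9%) and 54.2% of all loci lay above 0.

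2310015A10Rik (chr12:80120546-80132844, minus strand, 3 exons) had the smallest p of all lincRNA loci in any of the 3 comparisons. It was measured at 2.63, 3.05, 3.55 and 2.87 FPKM in siScramble, 3.43, 3.35, 3.53 and 3.05 FPKM in siHdac4, and 2.06, 2.74, 2.09 and 2.53 FPKM in siBdnf. The siHdac4 values lay above the siBdnf values without overlap, and siScramble overlapped with both. Its mean was 3.34 ± 0.205 FPKM in siHdac4 and 2.35 ± 0.337 FPKM in siBdnf (SD, n = 4 each), a log2 fold change of 0.38 (95% interval 0.17 to 0.58; limma adjusted p = 0.213).

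Gm5087 (chr14:13157388-13284638, minus strand), which starts 142 bases from the synaptic vesicle gene Synpr on the opposite strand, was measured at 0.875, 0.943, 1.88 and 1.83 FPKM in siScramble, 0.978, 0.825, 0.776 and 0.865 FPKM in siHdac4, and 1.81, 1.42, 1.35 and 1.77 FPKM in siBdnf. The siHdac4 values were tightly grouped below siBdnf, and siScramble had 2 libraries near siHdac4 and 2 above every siBdnf library. The log2 fold change was −0.47 (95% interval −0.79 to −0.16; limma adjusted p = 0.226). When only the siHdac4 and siBdnf libraries entered the fit, the same log2 fold change had a limma adjusted p of 0.0465, against 0.0992 to 0.476 over the other alternatives. Gm5087 was then the single lincRNA called, in a fit that called 167 of 18339 loci (0.911%).

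5430416N02Rik (chr5:100420842-100429535, minus strand) was measured at 13.8, 12.4, 18.4 and 17.6 FPKM in siScramble, 11.2, 11.3, 15.3 and 13.7 FPKM in siHdac4, and 19.1, 16.7, 15.7 and 18.4 FPKM in siBdnf. Its siHdac4 values lay below its siBdnf values without overlap (log2 fold change −0.42, 95% interval −0.71 to −0.13; limma adjusted p = 0.226). Gm26782, which starts 236 bases from the telomerase protein gene Tep1, had a log2 fold change of −0.21, and A330023F24Rik one of −0.24. 2010320M18Rik (chr8:70776815-70777823, plus strand), a single-exon transcript that starts 102 bases from Pik3r2, a regulatory subunit of phosphoinositide 3-kinase, was measured at 1.58, 1.14, 1.04 and 0.829 FPKM in siScramble, 1.55, 1.40, 1.45 and 1.43 FPKM in siHdac4, and 0.647, 0.994, 1.13 and 0.996 FPKM in siBdnf. The siHdac4 values lay above the siBdnf values without overlap, and siScramble replicate 1 was the highest of all (log2 fold change 0.35, 95% interval 0.11 to 0.59; limma adjusted p = 0.226).

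A joint test of any difference among the 3 groups gave 0 lincRNA loci at an adjusted limma p below 0.05, and 0% of all loci. At an unadjusted p below 0.05 it gave 17 of the 147 (11.6%), beside 12.7% of all loci, and its smallest adjusted p for a lincRNA was 0.347.

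At several loci, named here because of these values, single libraries stood far from others of their own group. The median SD over the 12 libraries on the log2 scale was 0.182 for the 147 lincRNA loci, against 0.149 for protein-coding loci at the same minimum. 1810058I24Rik (chr6:35252654-35263496, plus strand, 3 exons) had the largest SD, 1.40. It was measured at 2.56, 1.94, 2.32 and 2.63 FPKM in siScramble, 1.65, 1.40, 84.6 and 1.58 FPKM in siHdac4, and 2.26, 2.09, 2.21 and 1.95 FPKM in siBdnf. Replicate 3 of siHdac4 alone was high, and the other 11 libraries lay between 1.40 and 2.63 FPKM. Its log2 fold change for siHdac4 against siScramble was 0.87 (95% interval −1.13 to 2.87; limma adjusted p = 0.737), and turned to −0.40 without that library. In the authors' deposited table it was the single lincRNA with an FDR below 0.05, among 221 of 22306 loci (0.991%) in siHdac4, with a log2 fold change of 3.24 and an FDR of 0.00739. For siBdnf the authors' deposited table gave an FDR below 0.05 to 0 of the 238 lincRNA loci and to 0.632% of all loci, and its smallest lincRNA FDR was 0.152, with 12 of the 238 at an unadjusted p below 0.05, beside 4.54% of all loci. For siHdac4 the authors' deposited table had 14 of the 238 at an unadjusted p below 0.05, beside 6.4% of all loci.

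1700029E06Rik (chr5:58453039-58455292, plus strand, 2 exons) was measured at 131, 21.4, 36.2 and 24.7 FPKM in siScramble, 30.7, 121, 74.6 and 42.3 FPKM in siHdac4, and 23.4, 7.07, 11.97 and 21.2 FPKM in siBdnf. Replicate 1 of siScramble and replicates 2 and 3 of siHdac4 were the highest, and replicates 2 and 3 of siBdnf the lowest. Its siHdac4 values lay above its siBdnf values, with a log2 fold change of 1.95 (95% interval 0.67 to 3.23; limma adjusted p = 0.226). 2810008D09Rik (chr11:117076008-117078955, plus strand), which RefSeq names Snhg20 and which holds the small Cajal body RNA gene Gm26083 and Mir6516, was measured at 23.8, 13.95, 8.98 and 10.4 FPKM in siScramble, 18.3, 32.5, 23.5 and 14.2 FPKM in siHdac4, and 10.997, 11.7, 11.2 and 8.58 FPKM in siBdnf. The same 3 libraries were the highest, and siHdac4 lay above siBdnf without overlap (log2 fold change 0.94, 95% interval 0.32 to 1.56; limma adjusted p = 0.226).

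Rnu11, the U11 small nuclear RNA of the minor spliceosome, which the tables class as lincRNA and GENCODE M21 as snRNA, was measured at 4.42, 2.08, 1.66 and 1.09 FPKM in siScramble, 3.99, 4.90, 4.001 and 2.24 FPKM in siHdac4, and 2.32, 1.39, 1.42 and 2.21 FPKM in siBdnf. These 3 libraries were again the highest, closely followed by siHdac4 replicate 1. The log2 fold change of Rnu11 for siHdac4 against siBdnf was 0.74 (95% interval 0.15 to 1.33; limma adjusted p = 0.256). In the same libraries the 8 loci of the type misc_RNA had their 3 highest median deviations from their mean, 0.66 in siScramble replicate 1, 1.31 in siHdac4 replicate 2 and 0.56 in siHdac4 replicate 3 on the log2 scale. Their deviation of largest size was a low one, −1.34 in siScramble replicate 2. In the same 3 libraries and order, the 16 loci of the type snRNA had median deviations of 0.12, 0.36 and 0.11. The 17 loci of the type snoRNA had 0.28, 0.15 and 0.12. These values were smaller than those of misc_RNA, though also the 3 highest of their type. The corresponding median deviation of the 147 lincRNA loci was −0.059, 0.028 and −0.0026. The part of short structured RNA in these values was not tested.

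**Figure D4:**
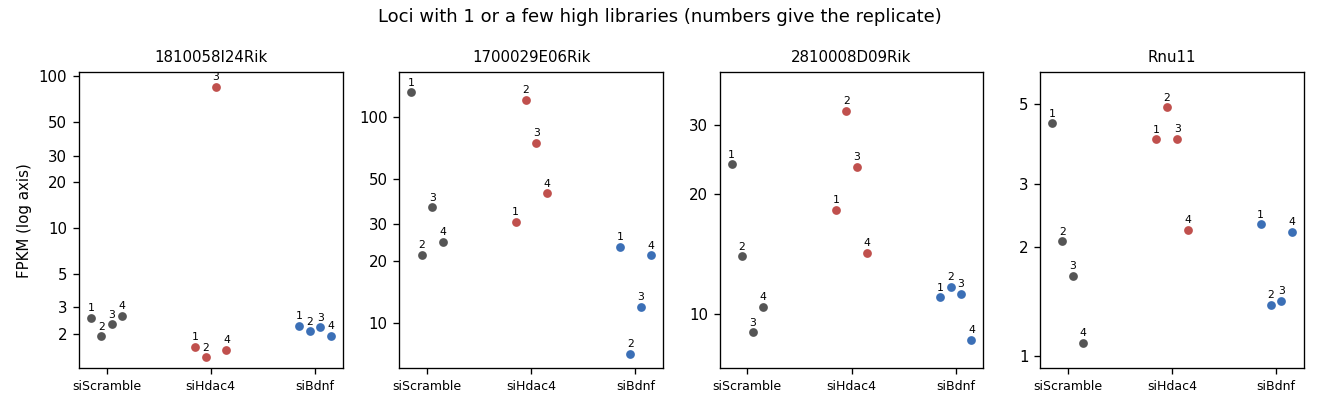
FPKM (log axes) of 4 lincRNA loci in which 1 or a few libraries were high, with each point labelled by its replicate number. 1810058I24Rik is high in siHdac4 replicate 3 alone, and the other 3 loci share siScramble replicate 1 and siHdac4 replicates 2 and 3 as their highest libraries.

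Gm12068 (chr11:24426246-24722646, plus strand) was measured at 4.39, 3.72, 7.27 and 0.988 FPKM in siScramble, 8.74, 0.908, 1.72 and 1.42 FPKM in siHdac4, and 0.488, 3.73, 4.41 and 6.84 FPKM in siBdnf. Each group held both low and high libraries, and the log2 fold changes against siScramble were −0.44 for siHdac4 (95% interval −1.79 to 0.91) and −0.12 for siBdnf (95% interval −1.47 to 1.23). 1500026H17Rik, whose promoter holds TGACGTCA, was measured at 4.33, 1.79, 3.87 and 2.85 FPKM in siScramble, 7.24, 2.75, 3.01 and 9.69 FPKM in siHdac4, and 2.44, 2.12, 4.99 and 3.21 FPKM in siBdnf. Replicates 1 and 4 of siHdac4 were the highest, and the groups overlapped (log2 fold change for siHdac4 against siScramble 0.56, 95% interval −0.20 to 1.32; limma adjusted p = 0.573). The joint locus of Gm13847 and Gm13849 was listed at 0 in 6 of the 12 libraries and between 2.098 and 5.93 FPKM in the others. Both kinds of value occurred in every group. Gm7967, at 7.90 FPKM in siHdac4 replicate 4 and listed at 0 in the other 11 libraries, was not tested.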

How the data were processed

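The study sequenced 12 mouse hippocampus libraries, 4 per group. TRIzol extraction and poly-A selected directional libraries are recorded per the labels' protocols. Reads went through TopHat2 2.0.9, Cufflinks and Cuffdiff, per the submitters' processing notes. Build, annotation, use of strand in counting and scaling between libraries: not given in the sources used here. Deposited by the authors were 2 tables of FPKM values per locus and library, whose 4 siScramble columns were identical. Log2 fold changes, p-values and FDR deposited by the authors were used only where their deposited table is named. FPKM values are not counts, and read totals are unknown.

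Differences were tested with limma 3.58.1 (R 4.3.3) after conversion to log2(FPKM + 1), which understates changes of low loci. All 3 groups entered a single fit with a trend of the prior variance. The 18339 loci had a mean of at least 1 FPKM. The 63 loci listed at 0 through a whole group while another group averaged at least 1 FPKM, 1 of them a lincRNA, were left out. P-values were Benjamini-Hochberg adjusted over all loci, with a threshold of 0.05. The script was tested on simulated data. Alternatives changed the pseudocount, filter, scaling, block, prior variance, groups and libraries entered. Python 3.11.15 with numpy 2.4.6, pandas 2.3.3 and matplotlib 3.10.9 did the rest.

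Named loci were the 10 of highest mean, the 5 of smallest p per direction and comparison, and those of the role lists with a mean of at least 1 FPKM. The 6 most variable and others so described were named after their values were seen. The lincRNA loci and the lists were chosen with earlier results of these data known. Names, biotypes and coordinates came from GENCODE M21 on GRCm38, and sequences from RefSeq GRCm38.p6.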

Additional observations from a re-analysis of the deposited data

Results flagged for a closer look

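In 7 of 126 groups of 4 libraries, taken over 42 named lincRNA loci, 1 library lay far from the other 3 by Dixon's criterion (gap over range above 0.829). For normally distributed values, chance alone flags about 1 group in 20. The criterion was applied to FPKM without a log scale, and its rate for such values was not checked. Of the 42 loci, 6 were named for their spread and held 3 of the 7 cases, so the total cannot be read against that share. The other 36 loci held 4 cases in 108 groups. These loci were named by level, by smallest p or from the role lists, so their cases cannot be read against that share either. Meg3 was at 179.6 FPKM in siHdac4 replicate 4, against 172.6 to 172.9 FPKM in the other 3, a small difference beside very tight values. 1700029E06Rik was at 131 FPKM in siScramble replicate 1, against 21.4 to 36.24 FPKM. Pvt1 was at 28.29 FPKM in siHdac4 replicate 2, against 24.86 to 25.42 FPKM. 1810058I24Rik was at 84.65 FPKM in siHdac4 replicate 3, against 1.405 to 1.646 FPKM. Neat1 was at 4.699 FPKM in siBdnf replicate 3, against 3.97 to 4.041 FPKM. Gm12068 was at 8.738 FPKM in siHdac4 replicate 1, against 0.9081 to 1.722 FPKM. 2310010J17Rik was at 2.255 FPKM in siHdac4 replicate 1, against 1.74 to 1.772 FPKM. In all 7 cases the single library was the high one.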

How the results depend on the processing

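Over 23 alternatives, 12 of them without 1 library each, limma called 0 lincRNA loci in each comparison, except for 1 (Gm5087, adjusted p = 0.0465) in siHdac4 against siBdnf with only the 2 groups compared. Without siScramble replicate 1, the smallest limma adjusted p of a lincRNA for siHdac4 against siScramble was 0.0627, in place of 0.476. Limma then called 36 of 18339 loci in that comparison, in place of 1. In the joint test the smallest limma adjusted p was then 0.0995, in place of 0.347, with 22 loci called in place of 0. The log2 fold change of 1810058I24Rik for siHdac4 against siScramble ran from −0.40 (without siHdac4 replicate 3) to 1.32 when single libraries were left out, and that of A330023F24Rik from −0.052 (without siScramble replicate 2) to 0.073. Of 806 alternative values of 36 named log2 fold changes, 802 kept their direction without a call. The number of lincRNA loci at an unadjusted p below 0.05 for siHdac4 against siScramble was 10 in the main fit (6.8%, beside 9.95% of all loci). Without siScramble replicate 1 it was 20 (13.6%, beside 19.6% of all loci), and without siScramble replicate 4 it was 5 (3.4%, beside 7.63%). It was 6 without siHdac4 replicate 3 (4.08%, beside 6.66%) or without siBdnf replicate 2 (4.08%, beside 8.77%). For siBdnf against siScramble it was 8 without siScramble replicate 1 (5.44%, beside 8.58%), in place of 13 (8.84%, beside 8.62%). In the joint test it was 10 without siHdac4 replicate 3 (6.8%, beside 8.78%), in place of 17 (11.6%, beside 12.7%). A minimum of 5 FPKM left 52 lincRNA loci, of which 2, 5 and 9 had an unadjusted p below 0.05 in the 3 comparisons. These were 3.85%, 9.62% and 17.3%, beside 10.9%, 9.86% and 17.8% of all loci. In the joint test there were 6 (11.5%, beside 14.5%). Without a filter on low values, 234 lincRNA loci were tested. Then 16 had an unadjusted p below 0.05 for siHdac4 against siScramble (6.84%, beside 9.5%) and 21 for siBdnf against siScramble (8.97%, beside 8.3%). With only the 2 groups compared, siHdac4 against siScramble gave 4 (2.72%, beside 6.79%). With a replicate block limma called 0 lincRNA loci in each comparison. Deviations of same-numbered libraries correlated from −0.076 to 0.24, with 4 of 12 pairs over 0.1, so the numbers were not taken as pairs. With read totals unknown, counting error at the 91 loci below 1 FPKM could not be given.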

Other observations

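Levels of loci related to the lincRNAs but classed under other types were also recorded. Gas5, a snoRNA host classed as processed_transcript, was at 138 ± 22.8 FPKM in siScramble, 168 ± 23.3 FPKM in siHdac4 and 152 ± 16.5 FPKM in siBdnf (SD, n = 4 each). Tug1, of the same class, was at 26.2 ± 1.18 FPKM, 26.6 ± 0.828 FPKM and 26.1 ± 0.589 FPKM in the same order, close to the level of Pvt1. The antisense transcript Kcnq1ot1 was at 4.43 ± 0.310 FPKM, 3.86 ± 0.327 FPKM and 4.59 ± 0.290 FPKM. The lincRNA loci were most numerous on chromosome 1, with 22, and on chromosome 5, with 21, and 1 lay on chromosome Y.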
